A study of Mus musculus with 4 samples.

Results

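The 6 genes described here encode basolateral potassium and HCN channels of cochlear hair cells and 1 accessory subunit: Kcnma1, Kcnmb2, Kcna10, Kcnj2, Kcnc4 and Hcn2. They were chosen by name as channels known from hair cells, 6 of the 37239 gene identifiers in the deposited values, and all 6 were measured in every library. RNA of whole cochleae was sequenced from mice at postnatal day 8, in 2 libraries from wild-type Ikzf2+/+ animals and 2 from homozygous Ikzf2cello/cello littermates, which carry a mutant allele named cello. Ikzf2 encodes helios, a zinc finger transcription factor of outer hair cells, and all cells of a homozygous animal carry the mutant allele, not outer hair cells alone. The labels call the libraries biological duplicates without saying whether a library came from 1 animal or several. The p-values therefore set the genotype difference against the spread between libraries of a genotype, which may not be that between animals. Levels are given in CPM, the reads of a gene scaled to a common total of counted alignments. A whole cochlea holds sensory, supporting, strial, nerve, vascular and bone cells, and in such tissue fewer cells of a type and less RNA per cell cannot be told apart.

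Hair cells set their resting potential and the speed of their receptor potential with potassium channels of the basolateral membrane. Potassium enters through the transduction channels of the bundle and leaves through these basolateral channels, and the mix of channels changes as the cell matures towards the onset of hearing. BK channels open on depolarization together with calcium. Kv1 and Kv3 channels open on depolarization alone, Kir2 channels rectify inwardly and hold the resting potential, and HCN channels carry a mixed cation current that is switched on by hyperpolarization. In rodents the fast BK current of inner hair cells appears around the onset of hearing, later than the age sampled here, whereas the Kir2 current belongs to immature hair cells.

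The potassium-selective members carry a potassium channel signature, which is shown here at the level of the transcript. The lines give 33 coding bases of each, 5′ to 3′, from the longest open reading frame in the GENCODE M21 transcripts of build GRCm38. Capitals mark the 9 bases that encode the centre of the selectivity filter signature.
Kcnma1: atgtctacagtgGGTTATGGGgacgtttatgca
Kcna10: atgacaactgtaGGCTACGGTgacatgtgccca
Kcnc4: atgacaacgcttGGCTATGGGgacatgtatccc
Kcnj2: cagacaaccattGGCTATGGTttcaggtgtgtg
Set against Kcna10, Kcnc4 shared 25 of the 33 bases, Kcnma1 21 and Kcnj2 20. In the capitals the other 3 shared 6 to 8 of 9 bases with Kcna10. The windows were found by searching the translation for this signature, so at least 6 of these 9 bases had to match. The bases just before them were constrained too. In Kcnmb2, which encodes an accessory subunit without a pore, 0 matches to the signature were found. The mixed cation channel gene Hcn2 had 1 match, so the signature is not particular to the genes shown, and its bases are not reported here.

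No difference between cello and wild-type was detected for any of the 6 channel genes. In the same libraries 2 marker genes of outer hair cells, Slc26a5 and Ocm, had far lower values in cello. In limma, a linear model fitted over all genes on log2(CPM + 0.5), 0 of the 6 members passed an adjusted p of 0.05 and 0 had an unadjusted p below 0.05. The background is that 0 of the 14721 genes tested passed (0%), so the 2 markers did not pass either, while 10.9% had an unadjusted p below 0.05. The count test edgeR also called 0% of all genes and 0 members. DESeq2 called 1.32% of all genes and 0 members, and it left the adjusted p of Kcnmb2 and Kcnc4 undefined. The members' log2 fold changes, cello minus wild-type, ran from -0.22 for Kcnj2 to 0.45 for Hcn2, with a median of 0.12 against -0.03 over all genes tested. Of the 6 genes, 4 lay above 0 and 2 below.

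**Figure D1:**
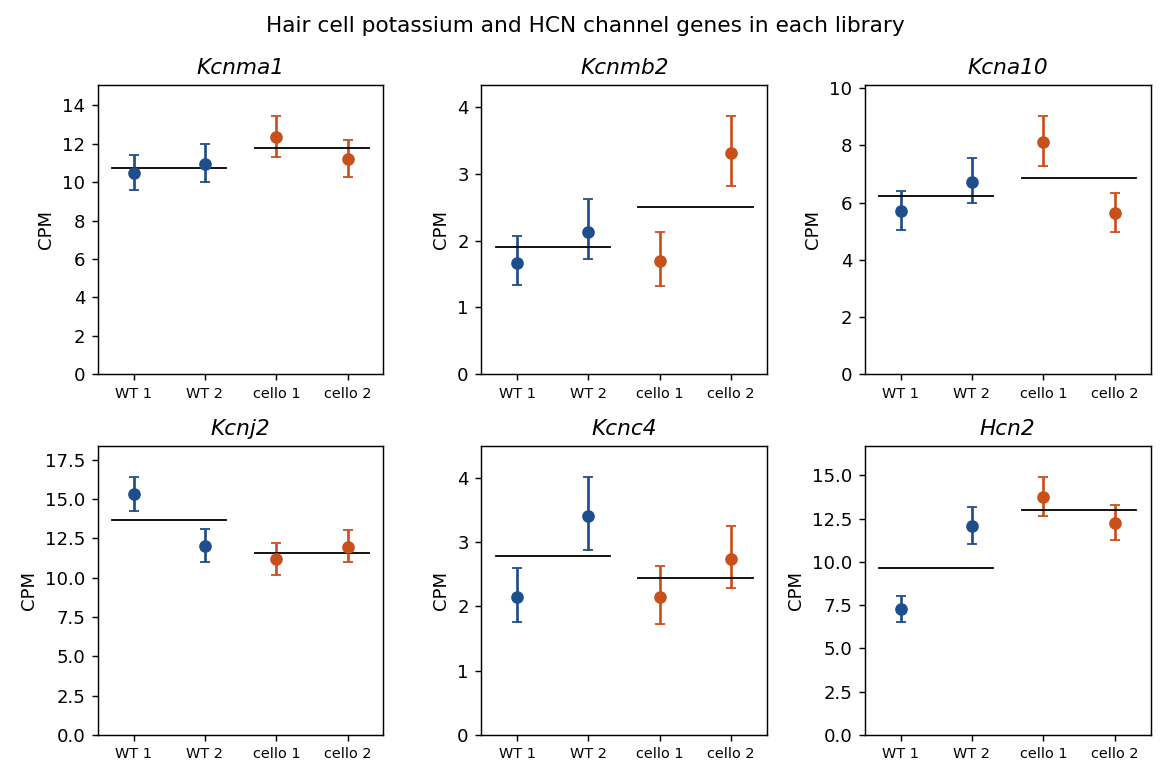
CPM of the 6 channel genes in each of the 4 libraries, with wild-type (WT) in blue, cello in orange, group means as horizontal lines and 95% Poisson intervals of the read count as error bars. Kcnma1 is nearly level over the libraries, Hcn2 is lowest in wild-type replicate 1 at 7.26 CPM, and Kcnmb2 and Kcna10 differ more within cello than between the group means.

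The pore-forming BK subunit was the most even of the members. Kcnma1 (ENSMUSG00000063142, chromosome 14, 23289431 to 24014491 of GRCm38, minus strand, 38 annotated transcripts) was measured at 10.5 and 11.0 CPM in the wild-type libraries, against 12.3 and 11.2 CPM in the cello ones. Both cello libraries lay above both wild-type libraries, and the lower cello value fell inside the 95% counting interval of wild-type replicate 2, 9.98 to 12.0 CPM. Group means were 10.7 ± 0.340 CPM for wild-type against 11.8 ± 0.803 CPM for cello (SD, n = 2), and limma estimated a log2 fold change of 0.13 (SE 0.12, unadjusted p = 0.338, adjusted p = 0.715). Its 95% interval covers 0.882 to 1.36-fold. A noncoding gene on the opposite strand, 4930519K11Rik, overlaps 5.98% of the exon bases of Kcnma1 in the annotation, and it has no entry in the deposited values. The strand setting is not known, so reads from it cannot be told apart from those of Kcnma1 there.

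The BK accessory subunit was low and uneven. Kcnmb2 (ENSMUSG00000037610, chromosome 3, 31902507 to 32200180, plus strand) encodes the beta 2 subunit, which inactivates BK channels. It was measured at 1.67 and 2.14 CPM in the wild-type libraries, against 1.70 and 3.31 CPM in the cello ones, from 72 to 157 reads per library. Cello replicate 2 stood above the other 3 libraries, and the groups overlapped. Within cello the higher library was 1.95 times the lower one, and their 95% counting intervals did not overlap (1.33 to 2.14 against 2.81 to 3.87 CPM). The estimate in limma was a log2 fold change of 0.27 (SE 0.32, unadjusted p = 0.429, adjusted p = 0.765), and it was -0.12 without cello replicate 2. Per kb of exon the ratio of Kcnmb2 to Kcnma1 was 0.865 and 1.06 in wild-type and 0.746 and 1.60 in cello, so the balance of the subunits overlapped between genotypes.

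Among the other 7 listed BK subunit genes, the auxiliary gamma subunit gene Lrrc55 had the smallest p. It was measured at 30.0 and 32.7 CPM in the wild-type libraries, against 22.1 and 21.0 CPM in the cello ones. Both cello libraries were lower than both wild-type libraries. Its log2 fold change of -0.53 (SE 0.10) did not pass in limma (unadjusted p = 0.0024, adjusted p = 0.419 over all genes) and passed in DESeq2 (adjusted p = 0.045). Lrrc26, a further gamma subunit gene, stood at -0.26 on that scale with overlapping groups. The remaining accessory genes Kcnmb1, Kcnmb3, Kcnmb4, Lrrc38 and Lrrc52 were below the filter of 1 CPM in 2 libraries, and Lrrc38 had 0 reads in all 4. Of the 4 BK genes tested, 0 passed in limma, 2 lay below 0, and the median was -0.07.

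For the voltage-gated Kv members no difference was detected either. Kcna10 (ENSMUSG00000042861, chromosome 3, 107183056 to 107195721, plus strand) encodes Kv1.8, a Kv1 subunit of hair cells best known from the vestibular organs. It was measured at 5.69 and 6.74 CPM in the wild-type libraries, against 8.13 and 5.63 CPM in the cello ones. The highest and the lowest of the 4 values were the cello libraries. Their 95% counting intervals did not overlap, while those of the wild-type pair did. For Kcna10 the log2 fold change was 0.12 (SE 0.22, unadjusted p = 0.606, adjusted p = 0.849 in limma), and it was -0.13 without cello replicate 1. That library also carried the highest summed CPM of bone markers (6710 against 3888 in cello replicate 2 and 4542 and 4547 in wild-type) and of endothelial markers (395 against 268, and 295 and 299). All 10 bone and 8 endothelial markers were detected, and their part in the level of Kcna10 was not tested.

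Kcnc4 (ENSMUSG00000027895, chromosome 3, 107438303 to 107459552, minus strand) encodes Kv3.4, a rapidly inactivating Kv3 subunit that fast skeletal muscle also uses. It was measured at 2.15 and 3.42 CPM in the wild-type libraries, against 2.14 and 2.74 CPM in the cello ones, from 91 to 144 reads. Wild-type replicate 2 was highest and the groups overlapped. Its log2 fold change was -0.14 (SE 0.26, unadjusted p = 0.619, adjusted p = 0.854 in limma). That estimate became 0.14 when wild-type replicate 2 was left out and 0.01 when cello replicate 1 was. The summed level of 10 skeletal muscle markers, of which 4 passed the filter and 0 were without reads in all libraries, was 35.0 CPM in wild-type replicate 2, 7.74 in wild-type replicate 1 and 5.25 and 5.60 in cello. The part of muscle RNA in the level of Kcnc4 was not tested.

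Kcnj2 had the lowest estimate of the 6 genes. Kcnj2 (ENSMUSG00000041695, chromosome 11, 111066164 to 111076821, plus strand) encodes Kir2.1, the inward rectifier that holds the resting potential of immature hair cells. It was measured at 15.3 and 12.0 CPM in the wild-type libraries, against 11.2 and 12.0 CPM in the cello ones, from 474 to 760 reads. Wild-type replicate 1 stood apart from the other 3 libraries, and the groups were separated by less than 1 read in wild-type replicate 2. The means were 13.6 ± 2.34 and 11.6 ± 0.567 CPM (SD, n = 2). Limma gave a log2 fold change of -0.22 (SE 0.15, unadjusted p = 0.213, adjusted p = 0.618), which became -0.05 when wild-type replicate 1 was left out. Of the 4 Kir2 genes 2 were tested, and the second, Kcnj12, stood at -0.15 with overlapping groups.

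Hcn2 had the largest estimate of the 6 genes, and its size depended on which wild-type library was kept. Hcn2 (ENSMUSG00000020331, chromosome 10, 79716634 to 79736108, plus strand) encodes a channel subunit opened by hyperpolarization and cyclic nucleotides, found in hair cells and also in neurons. It was measured at 7.26 and 12.1 CPM in the wild-type libraries, against 13.8 and 12.3 CPM in the cello ones, from 361 to 584 reads. Both cello libraries were above both wild-type libraries, but wild-type replicate 2 and cello replicate 2 nearly coincided, and wild-type replicate 1 was low. The means were 9.67 ± 3.40 and 13.0 ± 1.06 CPM (SD, n = 2). In limma the log2 fold change was 0.45 (SE 0.25, unadjusted p = 0.129, adjusted p = 0.545). Leaving out wild-type replicate 1 brought it to 0.10, and leaving out wild-type replicate 2 to 0.80.

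Over the 6 members, 2 had both cello libraries above both wild-type libraries (Kcnma1 and Hcn2) and 1 had both below (Kcnj2). Over all genes tested these shares were 16.9% and 28.7%, so separation of the groups by itself does not set a member apart here.

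**Figure D2:**
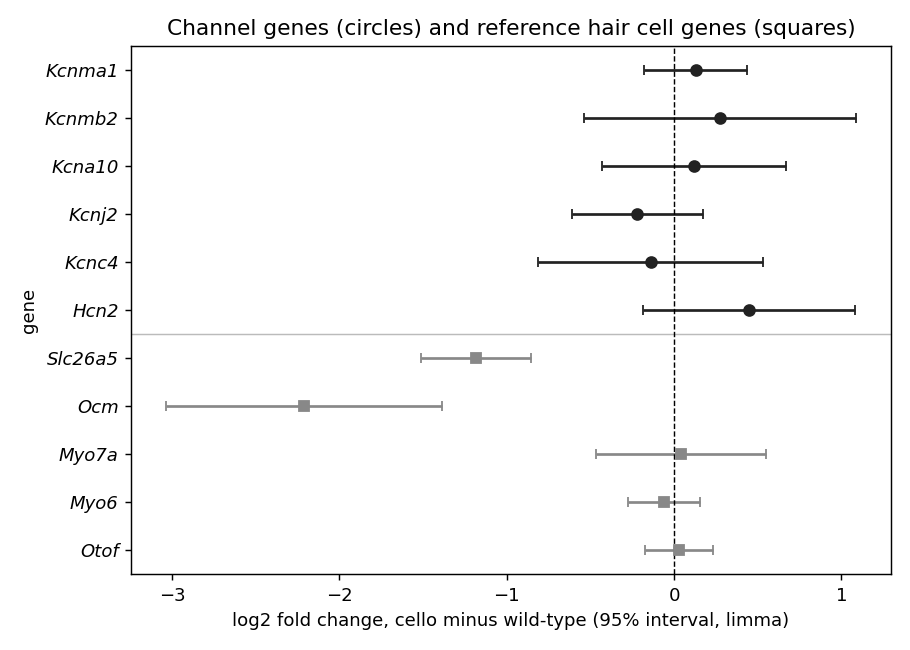
Log2 fold changes, cello minus wild-type, with 95% intervals from limma for the 6 channel genes (black circles) and for 5 reference genes of hair cells (grey squares). The intervals of the channel genes all include 0, from -0.81 for the lower end of Kcnc4 to 1.09 for the upper end of Kcnmb2, while those of Slc26a5 and Ocm lie below 0.

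The width of the intervals shows which changes remain compatible with these libraries. The narrowest belonged to Kcnma1 and Kcnj2, whose interval covers 0.654 to 1.13-fold. For Kcna10 it covers 0.741 to 1.59-fold, for Kcnc4 0.570 to 1.45-fold, for Kcnmb2 0.688 to 2.12-fold and for Hcn2 0.880 to 2.12-fold. Changes inside these limits remain compatible with the 2 libraries per genotype. The limits do not mark what would have been detected, since 0 of the 14721 genes tested passed the adjusted threshold in limma.

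Reference genes of hair cells give the scale. Slc26a5, which encodes the outer hair cell motor protein prestin, was measured at 20.8 and 24.9 CPM in the wild-type libraries, against 9.80 and 9.69 CPM in the cello ones. The interval of its log2 fold change runs from -1.51 to -0.85. Ocm, the gene of the outer hair cell calcium buffer oncomodulin, has an interval from -3.04 to -1.39. None of the 6 intervals of the channel genes reached down to the upper end of either. Slc26a5 and Ocm do not stand for all 11 outer hair cell markers listed. The log2 fold changes of that list ran from -2.21 to -0.20, with a median of -0.99. Slc26a5 and Ocm each had an adjusted p of 0.419 in limma and did not pass, whereas DESeq2 called both (adjusted p = 5.4e-07 for Slc26a5 and 0.0063 for Ocm). The difference between a channel gene and a marker was not tested. The levels of the channel genes are those of the whole cochlea, and the part of hair cells in them was not measured. Myo7a and Myo6, genes of both kinds of hair cell, stood near 0, at 0.04 and -0.06. So did the inner hair cell synaptic gene Otof, at 0.03. The signs of these 3 changed under some settings. They do not stand for their kinds, since 10 of 12 general hair cell markers lay below 0, with a median of -0.51. Of the 8 inner hair cell markers 4 lay below 0, and the list ran from -0.38 to 1.24. The mutated gene Ikzf2 was measured at 22.9 and 18.5 CPM in the wild-type libraries, against 17.7 and 16.9 CPM in the cello ones, and its transcript level does not check the genotype of an allele that alters the protein.

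Levels of different genes compare only per length. As CPM per kb of annotated exon in wild-type, the order was Hcn2 (3.03 ± 1.07), Kcna10 (2.87 ± 0.341), Kcnj2 (2.50 ± 0.429), Kcnc4 (0.759 ± 0.244), Kcnma1 (0.631 ± 0.0201) and Kcnmb2 (0.608 ± 0.105), each as mean and SD of n = 2. The members thus formed a higher set of 3 and a lower set of 3. Between Kcnj2 and Kcnc4 the libraries did not overlap, with 2.20 CPM per kb as the lowest of Kcnj2 and 0.932 as the highest of Kcnc4. Within each set the neighbours in the order overlapped. In cello the same 3 genes led, at 4.07 ± 0.331 for Hcn2, 3.17 ± 0.816 for Kcna10 and 2.12 ± 0.104 for Kcnj2, and their libraries did not overlap from one to the next. With the length of the longest transcript in place of all exons, the 3 leading genes were again Kcna10, Hcn2 and Kcnj2, while 2 of the 6 genes kept their place. The level of Kcnma1 depends most on that choice, because its annotated exons add up to 17.0 kb against 12.1 kb in its longest transcript.

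**Figure D3:**
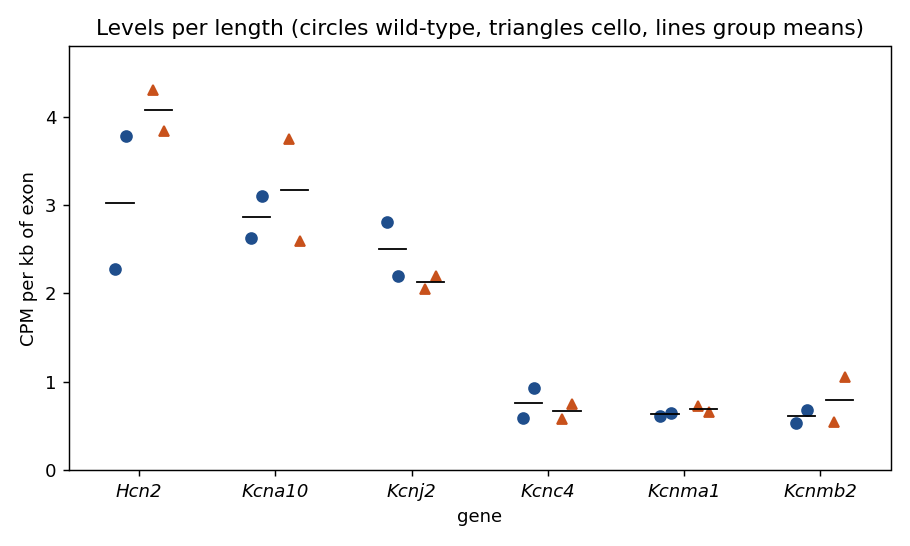
Level of each channel gene as CPM per kb of annotated exon, with circles for the 2 wild-type and triangles for the 2 cello libraries and lines for group means. Hcn2, Kcna10 and Kcnj2 lie above 2 CPM per kb in all 4 libraries, and Kcnc4, Kcnma1 and Kcnmb2 at or below 1.06.

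Even the leading members were modest transcripts of the whole cochlea. Among the 81 genes of the potassium channel and HCN family in the files, Hcn2 ranked 12th per kb in wild-type, Kcna10 13th, Kcnj2 16th, Kcnc4 33rd and Kcnma1 35th, with Kcnmb2 outside the family as an accessory gene. The top of that order was held by Kcnj10 at 38.7 and Kcnj16 at 38.1 CPM per kb, genes of the stria and the lateral wall. Hcn2 stood above 37.9% of all genes tested and Kcnmb2 above 9.12%.

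Some Kv1 and Kv3 relatives of the members had larger estimates. Of the 9 tested genes of the Kv1 list, 0 passed in limma and 7 lay above 0, with a median of 0.31. Kcna1 and Kcna2, the subunits of myelinated axons, had log2 fold changes of 1.75 (SE 0.50) and 1.59 (SE 0.38), and the beta subunit gene Kcnab2 one of 1.29 (SE 0.31). Without wild-type replicate 1 the estimates were 0.96 for Kcna1 and 0.99 for Kcna2. Without wild-type replicate 2 they were 2.53 and 2.18, and each of these fits keeps 1 wild-type library. Kcna2 was measured at 17.5 and 40.6 CPM in the wild-type libraries, against 84.9 and 77.5 CPM in the cello ones. It is a close neighbour of Kcna10 on chromosome 3, which ran between 5.63 and 8.13 CPM over the same libraries. Of the Kv3 genes, Kcnc1 stood at 1.52 and Kcnc2 at 0.54, against -0.14 for Kcnc4, and none of the 3 passed in limma. For Kcnc1 the estimate became 0.76 when wild-type replicate 1 was left out. Leaving out wild-type replicate 2 instead gave 2.28. DESeq2 called Kcnab2 (adjusted p = 0.0058). Whether Kcna10 or Kcnc4 differed from these relatives was not tested.

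Relatives and a partner of Hcn2 also lay above 0 in cello, without passing in limma. Hcn4 and Hcn3, pacemaker channel genes found in heart and nervous tissue, had log2 fold changes of 0.70 and 0.55. Pex5l, which encodes an accessory protein that traffics HCN channels in neurons, was measured at 8.75 and 12.5 CPM in the wild-type libraries, against 17.8 and 19.5 CPM in the cello ones. Its log2 fold change was 0.81 (SE 0.19), and it was called by DESeq2 (adjusted p = 0.029). Hcn2, Hcn3, Hcn4 and Pex5l were each lowest in wild-type replicate 1, as were 18.8% of all genes tested. In the potassium channel and HCN family this held for 29 of the 55 tested genes (52.7%).

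Most nerve markers also lay above 0 in cello. In the spiral ganglion neuron list 12 of 15 genes lay above 0 and the summed level was 274 and 684 CPM in wild-type and 842 and 1018 CPM in cello. In the list of Schwann cell and myelin genes 11 of 12 lay above 0, with sums of 2100 and 3407 CPM in wild-type and 5300 and 5054 CPM in cello. Of all 14721 genes tested, 6394 lay above 0. In these nerve lists limma and edgeR called 0 genes, while DESeq2 called 1 of the neuron list and 3 of the Schwann cell and myelin list, all with higher values. At an unadjusted p below 0.05 in limma the counts were 4 and 7. Over all genes tested 10.9% had such a p, and DESeq2 called 1.32%. Every marker of both lists was detected, and wild-type replicate 1 was the lowest library in 10 genes of each. The part of nerve RNA in the values of Hcn2 and of the other HCN, Kv1 and Kv3 genes was not tested.

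**Figure D4:**
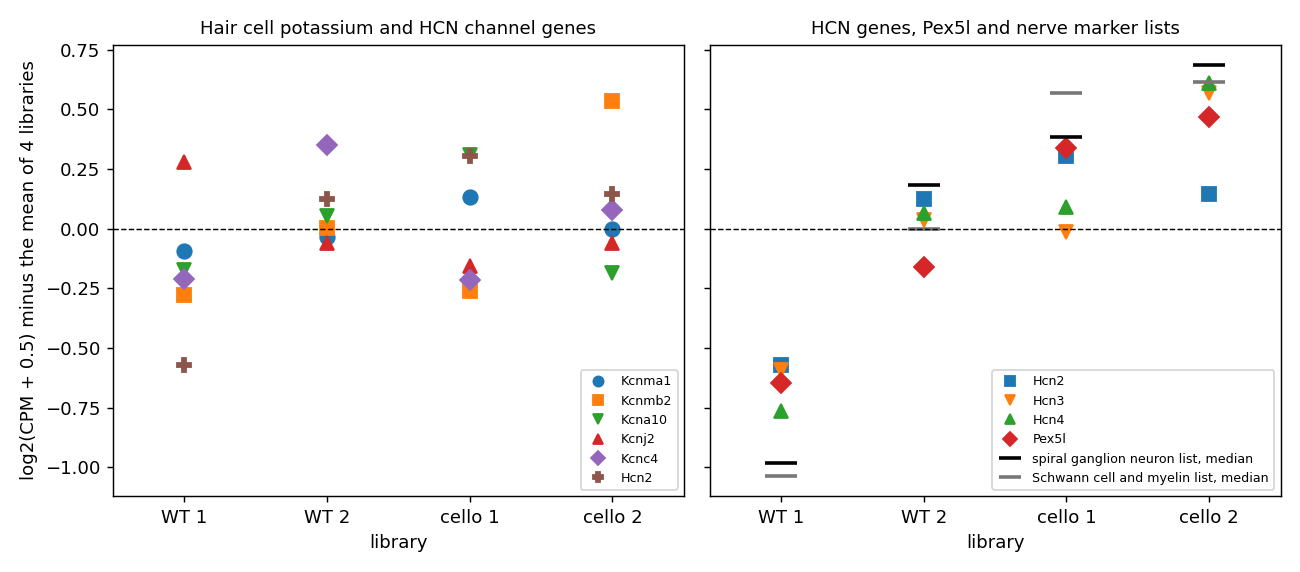
Log2(CPM + 0.5) in each library minus the mean of the 4 libraries, for the 6 channel genes on the left and for Hcn2, Hcn3, Hcn4 and Pex5l on the right, where bars give the medians of the nerve marker lists. All 4 genes on the right and both nerve medians are lowest in wild-type replicate 1, at -0.98 for the spiral ganglion neuron list and -1.03 for the Schwann cell and myelin list.

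Of the other channels listed for the hair cell's basolateral side, 7 genes were tested, 0 passed in limma and 6 lay below 0, with a median of -0.11. Chrna10, a subunit of the efferent nicotinic receptor, had a log2 fold change of -0.53 (SE 0.17) and Cacnb2, a calcium channel beta subunit gene, one of 0.27. Across the whole potassium channel and HCN family 55 of 81 genes were tested, 5 of the members among them. By limma 0 passed, 7 had an unadjusted p below 0.05 with higher and 4 with lower values, and the median was 0.12. Over all genes tested 10.9% had such a p. DESeq2 called 3 family genes, all with higher values and Kcnt1 among them, against 1.32% of all genes tested, and edgeR 0. Without wild-type replicate 2, which leaves 1 wild-type library, the limma estimates of Kcna1, Kcna2 and Kcnc1 were larger, as given above.

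**Figure D5:**
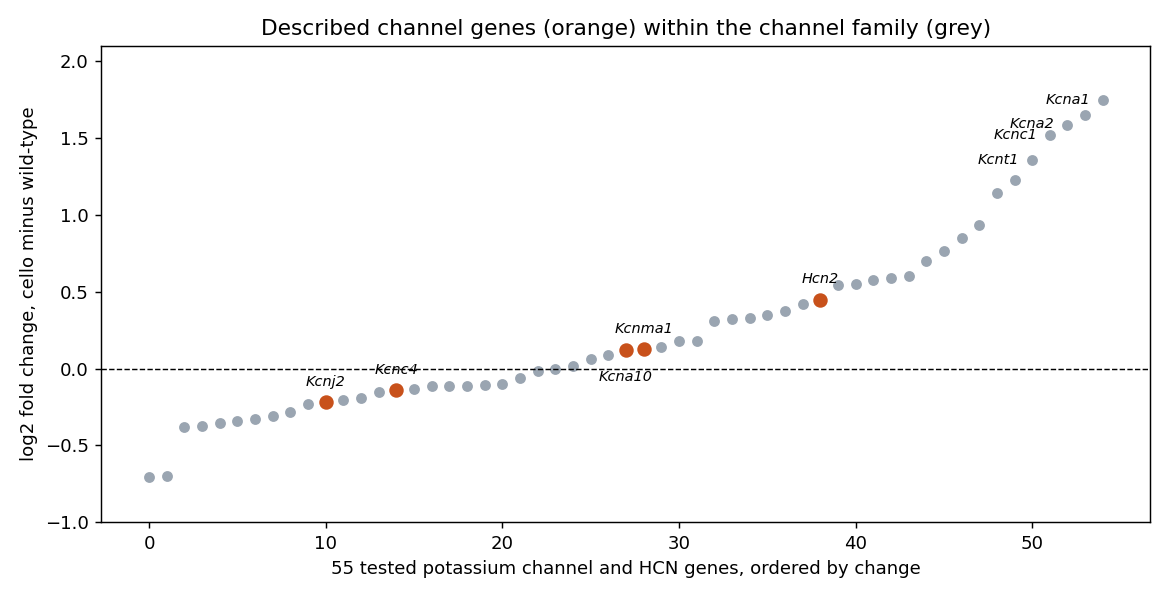
Log2 fold change, cello minus wild-type, of the 55 tested potassium channel and HCN genes in order of size, with the described genes in orange. They lie in the middle of the family, between -0.22 and 0.45, and Kcna1, Kcna2, Kcnc1 and Kcnt1 are among those above 1.1.

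The 6 genes lie on 4 chromosomes, with Kcnmb2, Kcna10 and Kcnc4 all on chromosome 3. Kcna10 and Kcnc4 lie 243 kb apart on chromosome 3, and Kcnj2 lies 38.2 kb from Kcnj16, which was measured at 145 and 155 CPM in the wild-type libraries, against 134 and 63.0 CPM in the cello ones. Of the genes within 250 kb of each member, limma called 0. It called 0 of all 14721 genes tested, so this does not set these windows apart. The tested genes numbered 23 around Hcn2, 6 around Kcnc4, 5 around Kcna10 and 1 each around Kcnma1, Kcnmb2 and Kcnj2. Around Hcn2 the log2 fold changes ran from -0.70 to 0.33 with a median of -0.12. There 5 of the 23 genes had an unadjusted p below 0.05 in limma, all with lower values in cello. Over all genes tested 10.9% had such a p. Around Kcna10 they ran from -0.31 to 1.59, the latter being Kcna2.

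The markers and channels that ran closest to each member over the 4 libraries were of mixed kinds. Likeness was the root mean square difference of centred log2 values, among 171 genes of the fixed lists. Nearest to Kcnma1 were the smooth muscle gene Myh11 (0.05), Kcnab3 (0.07) and Otof (0.07). For Kcnmb2 they were Kcnab1 (0.13), Shtn1 (0.14) and Cacnb2 (0.15). Those of Kcna10 were the vascular genes Kcnj8 (0.07), Tagln (0.08) and Cldn5 (0.08). Kcnj2 ran closest to the macrophage gene Cx3cr1 (0.09), the inner hair cell gene Fgf8 (0.10) and Kcna4 (0.10). Next to Kcnc4 were the keratin gene Krt18 (0.06), the nicotinic receptor gene Chrna9 (0.10) and the muscle gene Des (0.17). Hcn2 had Runx1 (0.13) of the spiral ganglion neuron list, Slc7a14 (0.14) of the inner hair cell list and the bone gene Spp1 (0.17) beside it. With 4 libraries such distances describe these libraries only.

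The libraries held 42152616 to 49719984 counted alignments, of which 70.0% to 72.8% lay in genes, and 1 read was worth 0.0201 to 0.0237 CPM. The outer hair cell markers had 11 of 11 genes below 0 with sums of 510 and 513 CPM in wild-type and 324 and 299.6 CPM in cello. General epithelial markers had 16 of 16 below 0, with sums of 1373 and 1478 against 1064 and 1126 CPM. General hair cell markers had 10 of 12 below 0, stria vascularis 10 of 10, supporting cells 11 of 12 and inner hair cells 4 of 8. By limma and edgeR 0 genes of these lists passed, although all 11 outer hair cell markers had an unadjusted p below 0.05 in limma. The share over all genes tested was 10.9% for such a p and 1.32% for a DESeq2 call. DESeq2 called 6 outer hair cell, 4 stria vascularis, 2 general hair cell, 2 general epithelial and 1 supporting cell marker, all with lower values, and 0 inner hair cell markers. The lists were written with earlier results of these data known, so their directions are not independent evidence.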

How the data were processed

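Whole cochleae were profiled by RNA-seq in 4 libraries prepared with a TruSeq kit, per the labels. The authors deposited CPM per gene. The CPM sum to the same total with 5 entries for alignments outside single genes, which held 27.2% to 30.0% and stayed out of all tests. Per the submitters' processing notes, TopHat and the GRCm38 build were used. Which counter, strand setting and annotation made the counts is not given in the sources used here.

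Dividing each deposited CPM by the smallest one of its library gave whole numbers for 100% of values (tolerance 0.001), which are the recovered reads. Symbols came from GENCODE M21, which matched 36504 of 37239 identifiers. The test covered the 14721 genes that reached 1 CPM in 2 or more libraries. In R 4.3.3, limma 3.58.1 with its trend option compared genotypes on log2(CPM + 0.5), and two-sided p-values were adjusted by Benjamini-Hochberg over all these genes. The spread that limma used for each gene was drawn towards a trend over all genes. All 6 members passed the filter in each genotype. Fold changes are on that scale, which understates changes of low genes. With 2 libraries against 2, the smallest p of an exact permutation test is 0.333, so none was run. Poisson intervals are exact, at 95%, and cover counting error only. The count tests edgeR 4.0.16 and DESeq2 1.42.0 ran on the recovered reads. All 3 tests were also run on simulated data, where only the error of the fold changes was required to be small. Recovery of changed genes there is not reported here, so power is not judged. Libraries of a genotype differed beyond sampling noise (chi-square per degree of freedom 20.4 and 55.0). Selectivity filter bases were found by translating open reading frames. Tables were handled in pandas 2.3.3 under Python 3.11.15 and plotted with matplotlib 3.10.9.

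The members and lists were chosen with earlier results of these data known. Named genes are the members, up to 3 genes per list with the smallest p, the 3 nearest genes, and hair cell reference genes. Hcn3, BK accessory genes below the filter, Kcnj10 and Kcnj16 were named after their values were seen. Marker lists are given by their counts, and some listed channel genes are counted but not reported here by themselves. Alternatives were other pseudocounts, filters, scalings, tests, a replicate block and leaving out each library.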

Additional observations from a re-analysis of the deposited data

How the results depend on the processing

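Under the 16 alternatives, 0 of the 6 members passed. Kcnma1, Kcnj2 and Hcn2 kept their sign under each. Leaving out each library in turn gave log2 fold changes from 0.06 to 0.20 for Kcnma1, -0.12 to 0.67 for Kcnmb2, -0.13 to 0.37 for Kcna10, -0.39 to -0.05 for Kcnj2, -0.42 to 0.14 for Kcnc4 and 0.10 to 0.80 for Hcn2. Kcnc4 stood at 0.0072 without cello replicate 1. Such values also crossed 0 for Myo7a (-0.23 to 0.32), Otof (-0.0147 to 0.0694) and Kcnj12 (-0.43 to 0.13), as did Myo6 under quantile normalization (0.0045). Genes called over all genes numbered 195 in DESeq2 and ranged from 0 to 90 when single libraries were left out, the 90 without wild-type replicate 2. In the channel family they numbered 3 in DESeq2 and 0 to 4. A fit that leaves out a library rests on 1 library of that genotype, so its calls carry little weight. The cause of these differences was not tested. Limma with the replicate number as a block called 0 genes and 0 members. Samples of equal number share only a number, and their deviations correlated at 0.13 over genes. With a mean of at least 5 CPM, Kcnmb2 and Kcnc4 were not tested. By the longest transcript, 2 of 6 members kept their place in the order. Counts of 72 to 157 reads limit the precision of Kcnmb2 and Kcnc4.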
